A study of Mus musculus with 12 samples.

Results

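The genes described here are 46 genes of the cell division cycle and of DNA replication, read in mouse hearts 5 days after doxorubicin (DOX), an anthracycline used against cancer, and in hearts without it. A gene was included when its symbol was on the list, and it was followed on whichever of its probe sets was brightest on average over all 12 arrays. Of the 46 listed genes, 45 were named by a probe set, with 109 probe sets among them, of 18193 genes and 45037 probe sets in all. The missing gene was Ccnb1, which is not analysed here. Every one of the 45 was tested, with no filter on low values.

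RNA of whole hearts of male C57BL/6J mice, given as 8 to 10 weeks old, was hybridised to 12 Affymetrix arrays, 3 in each of 4 groups. WT and CHIP knockout mice were either left without DOX or given 1 dose of 15 mg/kg. The labels say no treatment for the mice without DOX, whereas the study's methods describe saline, another dose and another age. The methods also describe a CHIP transgene expressed in the heart in place of a knockout, and its promoter is not given in the sources used here. Stub1, which encodes the ubiquitin ligase CHIP, went against the knockout label. On its brighter probe set it was at 1826 ± 33.7 in WT and 9411 ± 568 in CHIP knockout hearts without DOX (SD, n = 3), a log2 fold change of 2.34 (adjusted p = 2.2e-04 from limma). After DOX the values were 1941 ± 10.2 and 7427 ± 1656, a log2 fold change of 1.89 (adjusted p = 9.9e-04). The other probe set of Stub1 had differences of -0.04 and -0.08, and where on the transcript either probe set lies is not known. These hearts are therefore called knockout-labelled throughout. The labels do not say if an array holds RNA of 1 heart or of more, and with 3 arrays a group every value has limited precision. The defining genes of heart muscle cells were bright on every array, with Myl2 between 20720.1 and 25092. Array medians lay between 28.9 and 30.4. Knockout-labelled no DOX replicate 3 had the lowest mean correlation with its own group (r = 0.990 over all probe sets, against 0.992 to 0.997 for the other arrays).

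A dividing cell passes from G1 through S phase, when its DNA is copied, to mitosis. D-type cyclins drive the exit from G1 and release E2F factors, which switch on the genes of replication. The MCM helicase is loaded on origins by Cdc6 and Cdt1, and PCNA then holds the polymerases on DNA. Mitosis depends on Cdk1 with its cyclins, on Polo and Aurora kinases, and on the kinetochore and spindle. Heart muscle cells of adult mice rarely divide, while other cells of the heart (fibroblasts, endothelial cells and macrophages) can. In RNA of a whole heart, fewer cells of a type and less RNA per cell cannot be told apart.

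Many genes of this set share short promoter sequences, and the promoters of 4 genes that fell after DOX are shown for that reason. Each is 300 bases of the gene's strand, 250 before the start site and 50 after it, 5′ to 3′, from RefSeq on GRCm38.p6. Capitals mark 3 motifs searched on both strands. They are the E2F core (TTCCCGC or TTCGCGC or TTGCCGC or TTGGCGC), the cell cycle homology region (TTTGAA or TTCGAA) and the CCAAT box (CCAAT, or ATTGG on the other strand). Cdk1 (chr10:69352863-69353162, minus strand) and Ccnb2 (chr9:70421505-70421804, minus strand) act in mitosis. Mcm5 (chr8:75109259-75109558, plus strand) and Mcm6 (chr1:128359656-128359955, minus strand) encode subunits of the replication helicase.
Cdk1: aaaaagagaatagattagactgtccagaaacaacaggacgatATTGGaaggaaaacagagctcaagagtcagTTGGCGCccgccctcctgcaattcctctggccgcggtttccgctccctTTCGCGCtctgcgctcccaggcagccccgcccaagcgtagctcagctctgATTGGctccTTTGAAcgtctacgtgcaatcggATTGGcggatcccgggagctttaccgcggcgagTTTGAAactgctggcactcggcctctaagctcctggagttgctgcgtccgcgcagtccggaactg
Ccnb2: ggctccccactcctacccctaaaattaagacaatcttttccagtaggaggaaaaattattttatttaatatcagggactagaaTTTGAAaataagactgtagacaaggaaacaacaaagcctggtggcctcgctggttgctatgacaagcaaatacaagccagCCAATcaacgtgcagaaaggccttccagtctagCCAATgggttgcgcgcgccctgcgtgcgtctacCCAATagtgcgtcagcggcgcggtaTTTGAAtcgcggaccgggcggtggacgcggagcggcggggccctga
Mcm5: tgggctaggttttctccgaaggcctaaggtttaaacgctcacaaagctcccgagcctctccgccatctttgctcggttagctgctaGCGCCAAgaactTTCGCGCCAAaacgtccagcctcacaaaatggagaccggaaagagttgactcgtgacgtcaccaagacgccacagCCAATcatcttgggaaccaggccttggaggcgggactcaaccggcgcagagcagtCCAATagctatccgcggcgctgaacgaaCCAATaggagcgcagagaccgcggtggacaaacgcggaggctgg
Mcm6: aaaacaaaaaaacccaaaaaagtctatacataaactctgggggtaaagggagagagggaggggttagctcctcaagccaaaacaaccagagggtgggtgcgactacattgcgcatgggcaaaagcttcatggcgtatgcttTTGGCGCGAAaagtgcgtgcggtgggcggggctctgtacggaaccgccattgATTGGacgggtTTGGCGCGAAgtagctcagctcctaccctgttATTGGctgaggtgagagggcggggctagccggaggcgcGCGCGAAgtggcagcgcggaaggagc

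The promoter table held 36 of the 45 genes. An E2F core was in 12 of these 36 promoters (33.3%) and in 10.9% of the promoters of all 27025 genes in the table. The cell cycle homology region was in 19 (52.8%, against 21.7% of all), a CCAAT box in 25 (69.4%, against 41.1%), and both of the latter in 18 of the 36 (against 8.61% of all). In the Cdk1 promoter the nearer cell cycle homology region began 15 bases before the start site, with CCAAT boxes 48 and 80 bases before it. Ccnb2 held TTTGAA 5 bases after the start site and CCAAT boxes 21, 54 and 87 bases before it. The promoters of the helicase genes had no cell cycle homology region. Instead Mcm5 held 3 E2F cores, 2 of them overlapping, and Mcm6 held 5, in 2 overlapping pairs and 1 alone. Of the 11 genes that passed in the DOX comparison below, 8 were in the table. An E2F core was in 5 of these (Mcm5, Mcm6, Cdt1, Cdk1 and Plk4), the cell cycle homology region in 3 (Cdk1, Ccnb2 and Cenpf) and a CCAAT box in 5 (Cdk1, Ccnb2, Cenpf, Mcm5 and Mcm6). The Birc5 promoter held none of these letters in the window. Ccnd1, Ccna2 and Tpx2 were not in the table.

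The cell cycle genes were mostly lower after DOX, by small amounts, and 11 passed the test when the DOX difference was averaged over both genotypes. The genes that fell were Ccnd1, Cdt1, Mcm5, Mcm6, Ccna2, Ccnb2, Cdk1, Plk4, Cenpf and Birc5, and Tpx2 rose. That is 10 lower of 45, where 4.59% of all probe sets were lower, and 1 higher, where 4.56% of all were higher. The 45 were read on their brightest probe sets, while the share over all probe sets includes dim ones and ones without a gene. With 1 probe set per gene, 1473 of 18193 genes were lower and 1133 higher, which are larger shares. Values are linear intensities, differences are of log2(intensity + 32), and a gene passed at an adjusted p under 0.05 from limma over all 45037 probe sets. The mean was lower after DOX for 36 of the 45, with a median log2 difference of -0.08, while over all probe sets 49.5% were lower and the median was 0.00. For 7 genes all 6 DOX arrays lay below all 6 others, as for 1.7% of all probe sets. These were Ccnd1, Cdt1, Mcm5, Ccna2, Ccnb2, Cdk1 and Plk4. With 1 array left out at a time, 5 to 13 genes passed, and the fewest did so without WT no DOX replicate 3 or knockout-labelled DOX replicate 1 or 2.

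Taken within each genotype, fewer passed. In WT hearts 1 of 45 fell, Cenpf (1.4% of all probe sets were lower), and 0 rose (1.66% were higher). The mean was lower for 38 of 45 (54.0% of all probe sets), and the median difference was -0.09 (-0.006 over all). For 16 the 3 DOX arrays lay below the 3 others (12.8% of all probe sets). In knockout-labelled hearts 4 fell, Ccnd1, Cdk1, Mcm5 and Mcm6 (1.47% of all), and 0 rose (0.731% of all). There 35 had a lower mean (44.5% of all), the median was -0.07 (0.008 over all), and 12 did not overlap (9.59% of all). At an unadjusted p under 0.05 limma gave 12 lower and 2 higher in WT hearts, where 8.8% of all probe sets were lower and 10% higher. In knockout-labelled hearts it gave 12 lower and 1 higher (8.39% and 7.76% of all), and averaged over genotypes 19 lower and 2 higher (11.1% and 12.0% of all). The methods' t-test gave 7 lower and 1 higher in WT (7.72% and 7.28% of all) and 8 lower and 1 higher in knockout-labelled hearts (5.76% and 6.12% of all) at that threshold, and 0 of either after Benjamini-Hochberg adjustment. The direction was lower in both genotypes for 31 genes (68.9%), higher in both for 3 and opposite for 11. Over all probe sets 28.8% were lower in both. With 1 probe set per gene the shares of calls were larger in the lower direction. Of 18193 genes 525 were lower in WT and 557 in knockout-labelled hearts. At an unadjusted p under 0.05 limma then gave 2169 lower in WT, 2047 in knockout-labelled hearts and 2774 averaged over genotypes.

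**Figure D1:**
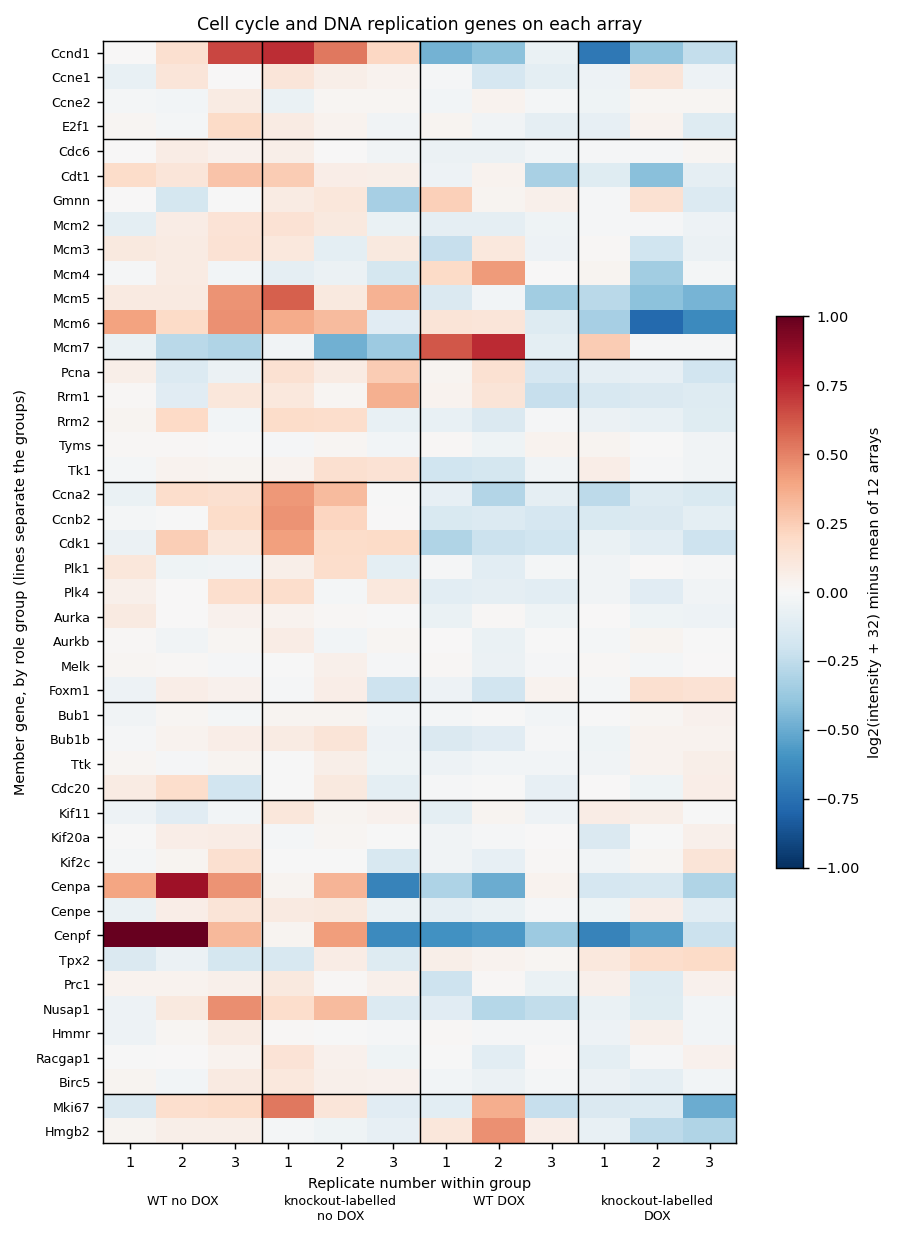
Each row is 1 of the 45 genes, ordered by role, and each column 1 of the 12 arrays. Colour is the log2(intensity + 32) of that array minus the gene's mean over all arrays, red above and blue below, and values past 1 in size take the end colour. Cenpf and Cenpa show the widest range, and most dim genes stay near white on all arrays.

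The arrays differed in how many of the 45 genes lay above their own mean over all 12 arrays. The counts were 24, 32 and 33 on the WT arrays without DOX, and 13, 15 and 10 on those after DOX. In knockout-labelled hearts they were 33, 37 and 16 without DOX and 11, 15 and 13 after it. The low count of 16 belonged to knockout-labelled no DOX replicate 3, the array with the lowest correlation with its own group. Many of these probe sets were dim. The mean over all arrays was at least 100 for 11 genes, between 32 and 100 for 11 and under 32 for 23, of which 7 were under 10. For dim probe sets the added 32 makes a log2 difference smaller than that of the intensities themselves.

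Of the genes of G1 exit, the D-type cyclin Ccnd1 fell. Its intensity was 556, 623 and 899.9 in WT and 947, 811 and 643 in knockout-labelled hearts without DOX, and 390.4, 409 and 527 in WT and 326, 413 and 466 in knockout-labelled hearts after DOX. Every DOX array was below every array without DOX. The log2 difference was -0.77 (standard error 0.14, adjusted p = 0.012) averaged over genotypes, -0.94 (standard error 0.20, adjusted p = 0.049) in knockout-labelled and -0.59 (standard error 0.20, adjusted p = 0.15) in WT hearts. The averaged call held without each array in turn. The call in knockout-labelled hearts held without 3 of 12 and had its highest adjusted p of 0.17 without knockout-labelled DOX replicate 1. The E-type cyclins, which follow the D-type at the start of S phase, differed little, with averaged differences of -0.09 (adjusted p = 0.31) for Ccne1 and -0.0044 (adjusted p = 0.96) for Ccne2. E2f1, the transcription factor released at this step, was at 50.2, 48.0 and 60.6 in WT and 53.7, 50.9 and 46.9 in knockout-labelled hearts without DOX, and 50.7, 46.9 and 43.9 in WT and 44.5, 50.8 and 41.9 in knockout-labelled hearts after DOX. Its groups overlapped in every comparison, and the averaged difference was -0.09 (adjusted p = 0.26).

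Among the 9 genes of origin licensing and the helicase, Mcm5, Mcm6 and Cdt1 fell and the others did not pass. Mcm5 was at 56.8, 57.0 and 81.9 in WT and 94.3, 57.5 and 74.1 in knockout-labelled hearts without DOX, and 43.7, 49.8 and 33.8 in WT and 37.5, 31.1 and 28.6 in knockout-labelled hearts after DOX. All 6 DOX arrays were lower than the rest, with a difference of -0.55 (standard error 0.10, adjusted p = 0.010) averaged, -0.72 (standard error 0.14, adjusted p = 0.033) in knockout-labelled and -0.38 (standard error 0.14, adjusted p = 0.17) in WT hearts. Mcm6 was at 166, 139.5 and 174 in WT and 163, 155 and 107 in knockout-labelled hearts without DOX, and 132, 132 and 105 in WT and 87.4, 55.6 and 64.3 in knockout-labelled hearts after DOX. The lowest values were those of the knockout-labelled DOX hearts, and the WT DOX arrays overlapped knockout-labelled no DOX replicate 3. Its difference was -0.54 (standard error 0.11, adjusted p = 0.015) averaged, -0.77 (standard error 0.15, adjusted p = 0.035) in knockout-labelled and -0.31 (standard error 0.15, adjusted p = 0.31) in WT hearts. Without each array in turn both averaged calls held, while those in knockout-labelled hearts held without 6 (Mcm5) and 4 (Mcm6) of 12. The highest adjusted p there was 0.098 without knockout-labelled DOX replicate 2 for Mcm5 and 0.11 without knockout-labelled DOX replicate 2 for Mcm6.

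Cdt1, which loads the helicase, was at 97.2, 91.8 and 107 in WT and 104, 87.0 and 86.4 in knockout-labelled hearts without DOX, and 77.6, 84.9 and 58.6 in WT and 72.6, 53.1 and 75.0 in knockout-labelled hearts after DOX. Every DOX array was below every other array. The averaged difference was -0.32 (standard error 0.08, adjusted p = 0.033). It passed without 4 of 12 arrays, with a highest adjusted p of 0.082 without WT no DOX replicate 3. Its inhibitor geminin (Gmnn) was at 953, 836 and 947 in WT hearts without DOX and 1125, 968 and 982 after it, and the averaged difference was 0.10 (adjusted p = 0.56). Mcm7, another helicase subunit, had a difference of opposite sign to Mcm5 and Mcm6. It was at 238, 202 and 198 in WT and 244, 171 and 188 in knockout-labelled hearts without DOX, and 403, 443 and 233 in WT and 305, 248 and 249 in knockout-labelled hearts after DOX, and its averaged difference of 0.50 (standard error 0.14, adjusted p = 0.058) did not pass. WT DOX replicates 1 and 2 were the highest arrays. Mcm2, Mcm3 and Mcm4 were at -0.10 (adjusted p = 0.24), -0.14 (adjusted p = 0.21) and 0.09 (adjusted p = 0.58), and Cdc6 at -0.05 (adjusted p = 0.19).

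**Figure D2:**
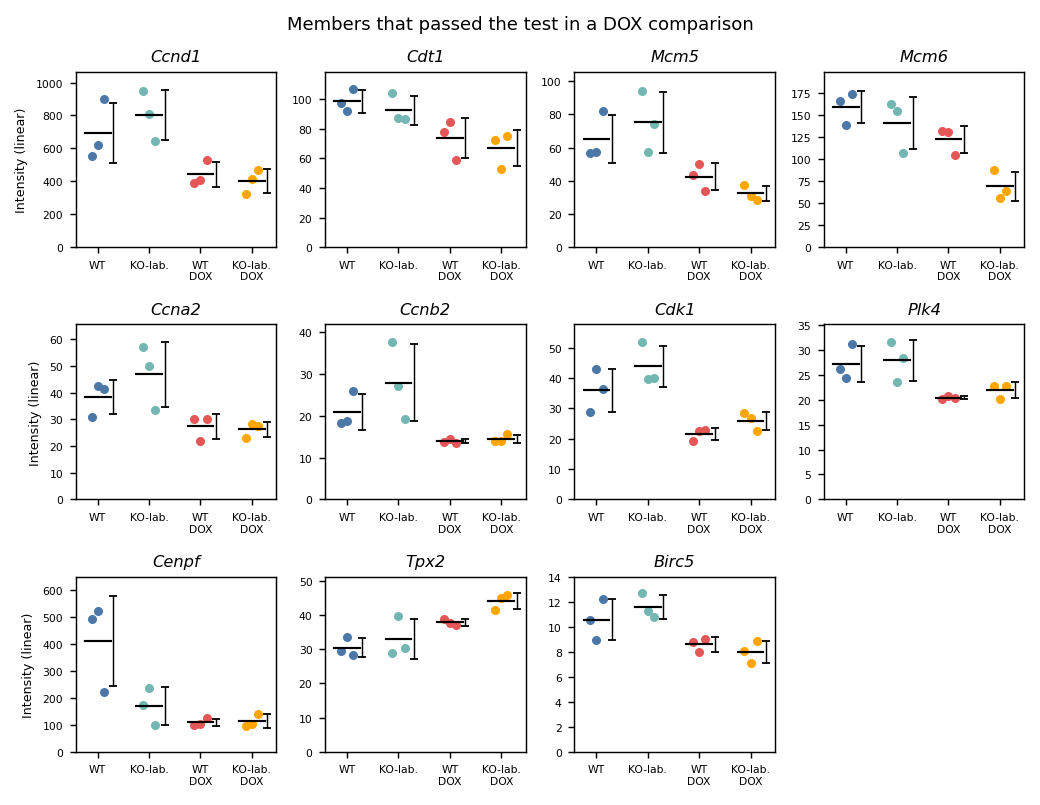
Linear intensity of the 11 genes that passed in a DOX comparison. Points are arrays, horizontal lines the means and bars the SD (n = 3). WT and KO-lab. stand for WT and knockout-labelled hearts without DOX, and the same names with DOX for hearts after it. In 7 panels all 6 DOX points lie below the others, Tpx2 lies higher, and Cenpf is highest in WT hearts without DOX.

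None of the 5 genes of DNA synthesis and nucleotide supply passed in any comparison, while 2 were lower at an unadjusted p under 0.05 in the averaged DOX comparison, a threshold that 11.1% of all probe sets passed in that direction. Pcna, the polymerase clamp, was at 901, 783 and 831 in WT and 966, 918 and 1036 in knockout-labelled hearts without DOX, and 884, 964 and 766 in WT and 809.6, 813 and 754 in knockout-labelled hearts after DOX. Knockout-labelled hearts without DOX had the highest mean, and WT DOX replicate 2 lay within their range. The difference was -0.29 (standard error 0.08, adjusted p = 0.11) in knockout-labelled and 0.05 (standard error 0.08, adjusted p = 0.83) in WT hearts. Tk1, the thymidine kinase, was at 30.2, 32.5 and 32.5 in WT and 32.8, 38.5 and 37.9 in knockout-labelled hearts without DOX, and 23.0, 23.8 and 29.6 in WT and 34.1, 30.7 and 29.5 in knockout-labelled hearts after DOX, with an averaged difference of -0.13 (standard error 0.04, adjusted p = 0.052). WT DOX replicates 1 and 2 were the lowest arrays, and replicate 3 lay within the range of the knockout-labelled DOX arrays. The subunits of ribonucleotide reductase, which makes deoxyribonucleotides, were at -0.17 (adjusted p = 0.22) for Rrm1 and -0.16 (adjusted p = 0.098) for Rrm2, and thymidylate synthase (Tyms) at -0.0019 (adjusted p = 0.98).

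The mitotic kinase Cdk1 and its cyclins Ccna2 and Ccnb2 all fell in the averaged DOX comparison. Cdk1 was at 28.7, 42.8 and 36.4 in WT and 51.7, 39.7 and 40.0 in knockout-labelled hearts without DOX, and 19.3, 22.5 and 22.9 in WT and 28.3, 26.8 and 22.5 in knockout-labelled hearts after DOX. The DOX arrays lay between 19.3 and 28.3 and the others between 28.7 and 51.7. The difference was -0.36 (standard error 0.06, adjusted p = 0.0072) averaged, -0.34 (standard error 0.08, adjusted p = 0.060) in WT and -0.39 (standard error 0.08, adjusted p = 0.047) in knockout-labelled hearts. The averaged call held without each array, and the call in knockout-labelled hearts without 2 of 12, with a highest adjusted p of 0.12 without knockout-labelled DOX replicate 3.

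Ccna2, the cyclin of S phase and G2, was at 31.0, 42.5 and 41.5 in WT and 57.1, 49.9 and 33.6 in knockout-labelled hearts without DOX, and 30.3, 21.8 and 30.0 in WT and 23.1, 28.2 and 27.4 in knockout-labelled hearts after DOX. Ccnb2, a mitotic cyclin, was at 18.2, 18.8 and 25.9 in WT and 37.5, 27.1 and 19.1 in knockout-labelled hearts without DOX, and 13.8, 14.4 and 13.4 in WT and 13.9, 14.0 and 15.7 in knockout-labelled hearts after DOX. Both were highest on knockout-labelled no DOX replicate 1, and for both all DOX arrays were below all others. Averaged differences were -0.34 (standard error 0.08, adjusted p = 0.029) for Ccna2 and -0.28 (standard error 0.07, adjusted p = 0.031) for Ccnb2. Plk4, the kinase of centriole duplication, was at 26.2, 24.4 and 31.3 in WT and 31.7, 23.6 and 28.5 in knockout-labelled hearts without DOX, and 20.2, 20.8 and 20.3 in WT and 22.8, 20.1 and 22.9 in knockout-labelled hearts after DOX. Again no DOX array reached the others, and the averaged difference was -0.16 (standard error 0.04, adjusted p = 0.030). These 3 calls held without 4 (Ccna2), 4 (Ccnb2) and 5 (Plk4) of 12 arrays. Their highest adjusted p was 0.074 without knockout-labelled DOX replicate 1, 0.074 without knockout-labelled DOX replicate 1 and 0.067 without knockout-labelled DOX replicate 2. The Polo kinase Plk1, the Aurora kinases and Melk did not pass, with averaged differences of -0.06 (adjusted p = 0.55) for Plk1, -0.06 (adjusted p = 0.12) for Aurka, -0.02 (adjusted p = 0.67) for Aurkb and -0.02 (adjusted p = 0.63) for Melk. Foxm1, the transcription factor of mitotic genes, was at 0.03 (adjusted p = 0.85).

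The 4 genes of the spindle checkpoint and of anaphase did not pass. Bub1b, a checkpoint kinase, was at 16, 17.6 and 18.5 in WT and 19.0, 20.7 and 14.8 in knockout-labelled hearts without DOX, and 11.7, 12.7 and 15.9 in WT and 15.0, 17.5 and 17.4 in knockout-labelled hearts after DOX. Its WT DOX arrays had the lowest mean and overlapped both knockout-labelled groups, and its averaged difference was -0.08 (adjusted p = 0.20). Ttk, the checkpoint kinase Mps1, was at 11.3, 10.4 and 11.7 in WT and 10.7, 12.6 and 9.57 in knockout-labelled hearts without DOX, and 9.40, 10.2 and 10.2 in WT and 9.81, 11.8 and 12.8 in knockout-labelled hearts after DOX, with an averaged difference of -0.01 (adjusted p = 0.84). All its arrays were dim and the groups lay close together. Bub1 and Cdc20, the activator of the anaphase-promoting complex, were at 0.00 (adjusted p = 0.96) and -0.02 (adjusted p = 0.90).

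Of the 12 genes of kinetochore, spindle and cytokinesis, Cenpf and Birc5 fell and Tpx2 rose. Cenpf, a protein of the outer kinetochore, was at 492, 519.6 and 219 in WT and 172, 236 and 96.7 in knockout-labelled hearts without DOX, and 99.6, 102 and 124 in WT and 94.2, 104 and 141 in knockout-labelled hearts after DOX. It was highest on WT no DOX replicates 1 and 2, and the other 10 arrays lay between 94.2 and 236. The difference was -1.57 (standard error 0.32, adjusted p = 0.036) in WT, -0.42 (standard error 0.32, adjusted p = 0.62) in knockout-labelled hearts and -0.995 (standard error 0.23, adjusted p = 0.027) averaged. The averaged call held without 4 of 12 arrays (highest adjusted p 0.068 without knockout-labelled DOX replicate 1) and that in WT hearts without 5 (highest 0.12 without WT no DOX replicate 2). Cenpa, the histone H3 variant of the centromere, was at 280.5, 397 and 293 in WT and 210.2, 268 and 118 in knockout-labelled hearts without DOX, and 159.7, 136 and 211 in WT and 179, 181 and 161 in knockout-labelled hearts after DOX. The WT arrays without DOX were again the highest group, and the difference in WT hearts was -0.82 (standard error 0.24, adjusted p = 0.091), against -0.11 (standard error 0.24, adjusted p = 0.90) in knockout-labelled hearts.

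Tpx2, which targets Aurora A to the spindle, was at 29.7, 33.6 and 28.4 in WT and 28.9, 39.8 and 30.5 in knockout-labelled hearts without DOX, and 39.0, 37.9 and 37.1 in WT and 41.5, 45.1 and 46.1 in knockout-labelled hearts after DOX. All DOX arrays were above all others in each genotype, and over both genotypes only knockout-labelled no DOX replicate 2, at 39.8, reached into the DOX range. The averaged difference was 0.20 (standard error 0.04, adjusted p = 0.019), and it passed without 11 of 12 arrays (adjusted p = 0.052 without WT no DOX replicate 3). Birc5, which encodes survivin of the chromosomal passenger complex, was dim, at 10.5, 8.96 and 12.2 in WT and 12.7, 11.3 and 10.8 in knockout-labelled hearts without DOX, and 8.76, 7.95 and 9.05 in WT and 8.04, 7.07 and 8.88 in knockout-labelled hearts after DOX. Its difference was -0.10 (standard error 0.02, adjusted p = 0.034) averaged, and it passed without 4 of 12 arrays, with a highest adjusted p of 0.075 without WT DOX replicate 2. Nusap1, a spindle protein, was at 27.3, 33.6 and 52.7 in WT and 37.2, 44.3 and 23.7 in knockout-labelled hearts without DOX, and 24.6, 18.4 and 19.8 in WT and 26.7, 24.4 and 28.1 in knockout-labelled hearts after DOX, and its averaged difference of -0.29 (standard error 0.10, adjusted p = 0.10) did not pass. The 3 kinesins and Cenpe, Prc1, Hmmr and Racgap1 had averaged differences between -0.10 and 0.00.

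Mki67, which encodes the proliferation marker Ki-67, did not pass in any comparison. It was at 35.5, 51.6 and 52.9 in WT and 75.5, 49.3 and 36.9 in knockout-labelled hearts without DOX, and 37.4, 63.8 and 31.6 in WT and 35.4, 35.9 and 21.0 in knockout-labelled hearts after DOX. The values of each group spread widely, with the highest on knockout-labelled no DOX replicate 1 and the lowest on knockout-labelled DOX replicate 3. The averaged difference was -0.25 (standard error 0.14, adjusted p = 0.34). Hmgb2, a chromatin protein of dividing cells, was at 126, 129 and 129 in WT and 121, 118 and 115 in knockout-labelled hearts without DOX, and 135, 181 and 131 in WT and 115, 97.1 and 93.9 in knockout-labelled hearts after DOX. Its difference was 0.17 (standard error 0.09, adjusted p = 0.38) in WT and -0.17 (standard error 0.09, adjusted p = 0.44) in knockout-labelled hearts, and 0.00 (adjusted p = 1.00) averaged.

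**Figure D3:**
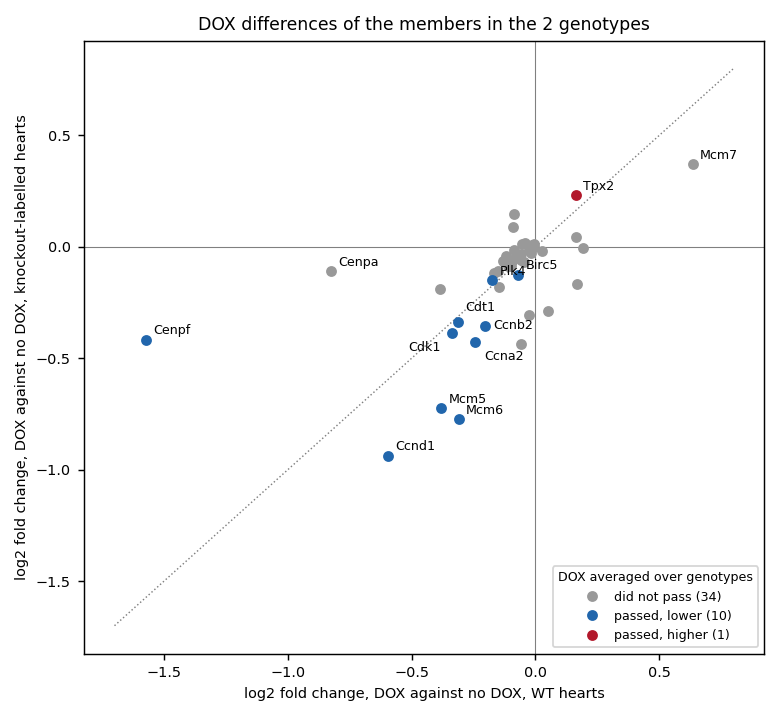
Log2 fold change after DOX of each of the 45 genes, in WT hearts on the horizontal and in knockout-labelled hearts on the vertical axis, with the dotted line where both are equal. Blue points fell and the red point rose in the comparison averaged over genotypes. Of the 45 genes, 31 lie at lower left, with both differences below 0. Cenpf lies far to the left of the line and Ccnd1 is the lowest point.

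The genotypes were compared with and without DOX and in their response to it. Knockout-labelled against WT hearts gave 0 of 45 genes without DOX (1.81% of all probe sets passed in either direction) and 0 after DOX (0.941% of all) with limma. The interaction, which tests whether the DOX difference itself differs between genotypes, gave 0 of 45, as of all probe sets (0.0%). At an unadjusted p under 0.05 limma gave 2 higher and 2 lower without DOX, where 6.83% of all probe sets were higher and 7.29% lower. After DOX it gave 1 higher and 3 lower (7.14% and 8.34% of all), and for the interaction 1 higher and 2 lower (4.28% and 4.41% of all). The methods' t-test gave 2 higher and 1 lower without DOX (4.84% and 6.18% of all) and 2 of each after DOX (6.39% higher and 5.36% lower of all) at that threshold, and 0 after adjustment. These counts of the 45 were near or below the shares over all probe sets. Medians over the 45 genes were 0.01 without DOX, 0.02 after DOX and 0.01 for the interaction.

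The genes with an unadjusted p under 0.05 in these comparisons are given here, and none of them passed. Without DOX, Cenpf was at 410.5 ± 166 in WT and 168 ± 69.8 in knockout-labelled hearts (SD, n = 3), a difference of -1.12 (standard error 0.32, adjusted p = 0.13). Cenpa had a difference of -0.67 (standard error 0.24, adjusted p = 0.22), and its 2 groups did not overlap. Pcna was at 0.21 (standard error 0.08, adjusted p = 0.27) and Kif11, a spindle motor, at 0.13 (standard error 0.04, adjusted p = 0.18), and their groups did not overlap either. Without DOX 3 of the 45 genes were higher and 3 lower without overlap, where 3920 and 4797 of all 45037 probe sets were. After DOX, Hmgb2 was at 149 ± 27.6 in WT and 102 ± 11.4 in knockout-labelled hearts, a difference of -0.43 (standard error 0.09, adjusted p = 0.067). Mcm6 was at 123 ± 15.4 and 69.1 ± 16.4, a difference of -0.62 (standard error 0.15, adjusted p = 0.087). For both the knockout-labelled DOX arrays lay below the WT DOX arrays. After DOX 3 of the 45 genes were higher and 2 lower without overlap, where 5061 and 4114 of all 45037 probe sets were. Mcm4, another helicase subunit, had a difference of -0.32 (standard error 0.11, adjusted p = 0.22). Tk1 had a difference of the opposite sign, 0.14 (standard error 0.05, adjusted p = 0.21), from 25.5 ± 3.59 in WT to 31.4 ± 2.37 in knockout-labelled hearts. The groups of Mcm4 and of Tk1 overlapped. The interaction was 1.16 (standard error 0.46, adjusted p = 0.55) for Cenpf, -0.33 (standard error 0.12, adjusted p = 0.50) for Pcna and -0.33 (standard error 0.13, adjusted p = 0.55) for Hmgb2. A gene that passed after DOX in only 1 genotype is therefore not shown to differ between them.

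Several genes had more than 1 probe set, and these did not always move alike. For Ccnd1 the averaged DOX difference was -0.77 (adjusted p = 0.012) on the probe set described above, -0.71 (adjusted p = 0.011) on the next in brightness and -0.44 (adjusted p = 0.066) on the dimmest. A second probe set of Mcm5 and of Mcm6 fell too, with differences of -0.15 (adjusted p = 0.028) and -0.33 (adjusted p = 0.0081), and the dimmest of each did not pass. That second probe set of Mcm6 was also lower in knockout-labelled than in WT hearts after DOX, -0.41 (adjusted p = 0.049). The same holds for a second probe set of Hmgb2, -0.78 (adjusted p = 0.032). For Rrm1 a dimmer probe set passed where the brightest did not. It fell after DOX with a difference of -0.19 (adjusted p = 0.017) averaged and -0.33 (adjusted p = 0.021) in knockout-labelled hearts. Without DOX it was higher in knockout-labelled than in WT hearts, 0.31 (adjusted p = 0.026). The other probe sets of Cenpf were at -0.18 (adjusted p = 0.23) and 0.01 (adjusted p = 0.78), and those of Plk4 at -0.08 (adjusted p = 0.48) and -0.08 (adjusted p = 0.14). For Tpx2 they were at 0.04 (adjusted p = 0.62), -0.04 (adjusted p = 0.29) and -0.04 (adjusted p = 0.23), so that its rise rests on 1 of 4 probe sets. Cdt1 had 3 probe sets and Ccna2 had 2, and the others of each are not described here. Over all settings the averaged difference ran from -0.38 to -0.13 for Cdt1 and from -0.44 to -0.23 for Ccna2.

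Other genes of the same pathways were read from lists beside the 45. Of 38 further replication genes, 6 fell and 2 rose in the averaged DOX comparison (4.59% and 4.56% of all probe sets). Dnmt1, the maintenance DNA methyltransferase, was at 207, 197 and 208 in WT and 220.2, 199.9 and 199 in knockout-labelled hearts without DOX, and 165, 180.1 and 149 in WT and 148, 143 and 144 in knockout-labelled hearts after DOX. All DOX arrays were below all others, and the difference was -0.35 (standard error 0.04, adjusted p = 0.0020). The subunits of replication protein A, which coats single-stranded DNA, went different ways. Rpa3 fell by 0.60 (standard error 0.09, adjusted p = 0.0045), from 231 ± 19.0 to 145 ± 8.75 in WT and from 294 ± 35.2 to 181 ± 37.7 in knockout-labelled hearts. Rpa2 rose by 0.29 (standard error 0.04, adjusted p = 0.0038), from 204 ± 3.39 to 263 ± 3.32 and from 156 ± 13.1 to 194 ± 15.7. It was lower in knockout-labelled than in WT hearts both without DOX, -0.33 (adjusted p = 0.024), and after it, -0.39 (adjusted p = 0.026). The largest subunit, Rpa1, was lower in knockout-labelled hearts after DOX, -0.39 (adjusted p = 0.040), as was Gins1 of the active helicase, -0.28 (adjusted p = 0.032). Between genotypes 3 of the 38 genes were lower without DOX, with Rpa2 the only one named here, and 3 after it. Of all 45037 probe sets 401 were lower between genotypes without DOX and 293 after it. Rfc3 of the clamp loader fell by 0.23 (adjusted p = 0.013). The averaged calls of Dnmt1, Rpa3, Rpa2 and Rfc3 held without each array in turn. After DOX the genotype call of Rpa1 held without 2 of 12 arrays (highest adjusted p 0.14 without knockout-labelled DOX replicate 2), that of Gins1 without 6 (0.11 without knockout-labelled DOX replicate 2) and that of Rpa2 without 8 (0.094 without knockout-labelled DOX replicate 3). Without DOX that of Rpa2 held without 7 (0.095 without WT no DOX replicate 2).

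Of 44 further mitotic genes, 8 fell and 0 rose in the averaged comparison (4.59% and 4.56% of all probe sets), and 36 had a lower mean. At an unadjusted p under 0.05 limma gave 16 lower and 0 higher (11.1% and 12.0% of all). Cks1b, a subunit that binds cyclin-dependent kinases, was at 302, 247 and 297 in WT and 324, 315 and 315 in knockout-labelled hearts without DOX, and 154, 144 and 196 in WT and 157, 190.0 and 159.8 in knockout-labelled hearts after DOX. The DOX arrays were all lower, with a difference of -0.74 (standard error 0.07, adjusted p = 0.0013) averaged, -0.68 (adjusted p = 0.017) in WT and -0.80 (adjusted p = 0.010) in knockout-labelled hearts. Its relative Cks2 fell by 0.34 (standard error 0.04, adjusted p = 0.0030). Top2a, the topoisomerase II of dividing cells and a target of DOX, was at 28.4, 29.1 and 47.7 in WT and 48.0, 28.8 and 34.3 in knockout-labelled hearts without DOX, and 14.0, 13.2 and 18.7 in WT and 11.2, 11.9 and 14.9 in knockout-labelled hearts after DOX. No DOX array reached the lowest of the others, and the difference was -0.56 (standard error 0.09, adjusted p = 0.0058). Shcbp1, a spindle-associated protein, was at -0.20 (adjusted p = 0.0031), the mitotic kinase Pbk at -0.13 (adjusted p = 0.012) and the condensin subunit Smc2 at -0.35 (adjusted p = 0.026). Of these averaged calls that of Smc2 held without 6 of 12 arrays (highest adjusted p 0.067 without WT no DOX replicate 3), and the other 5 held without each array in turn. The call of Cks1b in WT hearts held without 9 of 12 (0.075 without WT no DOX replicate 3) and that in knockout-labelled hearts without 11 (0.051 without knockout-labelled DOX replicate 1).

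Of 11 other cyclins and cyclin-dependent kinases, 5 fell and 0 rose in the averaged comparison (4.59% and 4.56% of all probe sets). At an unadjusted p under 0.05 limma gave 7 lower and 1 higher (11.1% and 12.0% of all). The other D-type cyclins and their kinases were among the 5 that fell. Ccnd2 was at 1352, 1728 and 1897 in WT and 2437, 3773 and 2388 in knockout-labelled hearts without DOX, and 922, 841 and 977 in WT and 1423, 1499 and 1773 in knockout-labelled hearts after DOX, and its difference was -0.83 (standard error 0.13, adjusted p = 0.0058). Knockout-labelled hearts were higher than WT both without DOX, 0.76 (adjusted p = 0.070), and after it, 0.75 (adjusted p = 0.084), but neither difference passed. Ccnd3 fell by 0.34 (standard error 0.04, adjusted p = 0.0016) and was higher in knockout-labelled hearts without DOX, 0.37 (adjusted p = 0.013). With the mean of all its probe sets the DOX difference of Ccnd3 turned to 0.04 and did not pass. The kinase Cdk4 fell by 0.32 (standard error 0.04, adjusted p = 0.0021), and its relative Cdk6 fell by 0.21 (adjusted p = 0.023). Ccnh, the cyclin of the CDK-activating kinase, also fell in the averaged comparison. It was lower in knockout-labelled than in WT hearts after DOX, -0.48 (adjusted p = 0.0031), and without it, -0.25 (adjusted p = 0.018). The averaged calls of Ccnd2, Ccnd3, Cdk4 and Ccnh and the genotype call of Ccnh after DOX held without each array in turn. The averaged call of Cdk6 held without 10 of 12 arrays (highest adjusted p 0.053 without knockout-labelled DOX replicate 2). Between genotypes without DOX that of Ccnd3 held without 11 (0.064 without WT no DOX replicate 2) and that of Ccnh without 9 (0.086 without WT no DOX replicate 2).

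**Figure D4:**
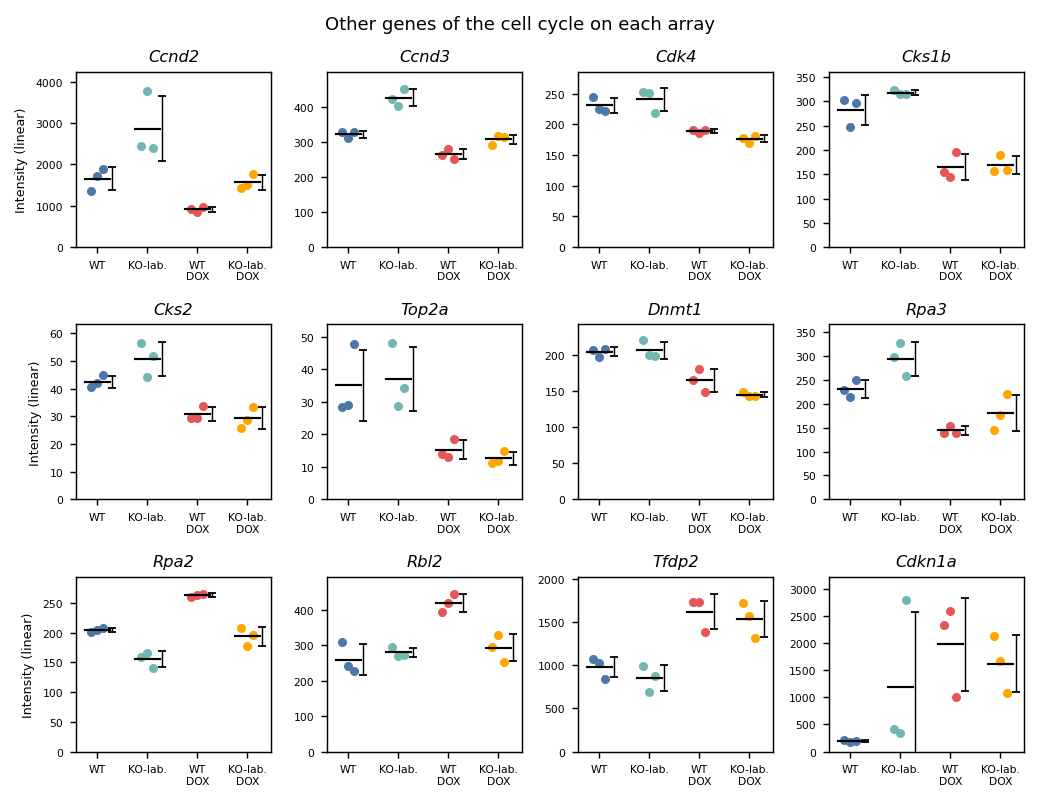
Linear intensity of 12 other genes of the cell cycle. Points are arrays, horizontal lines the means and bars the SD (n = 3), with WT and KO-lab. as WT and knockout-labelled hearts without DOX and the same names with DOX after it. Ccnd2, Ccnd3, Cdk4, Cks1b, Cks2, Top2a, Dnmt1 and Rpa3 are lower after DOX. Rpa2 and Tfdp2 are higher after DOX in both genotypes, and Rbl2 and Cdkn1a are higher in WT hearts after DOX. Knockout-labelled no DOX replicate 3 is the highest Cdkn1a point.

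Most of the inhibitors did not pass. Of 15 matched inhibitors and pocket proteins, 2 rose and 1 fell in the averaged comparison (4.56% and 4.59% of all probe sets). The mean was higher after DOX for 7 and lower for 8. Cdkn1a, which encodes the inhibitor p21, was at 211, 175 and 190.3 in WT and 419, 345 and 2794 in knockout-labelled hearts without DOX, and 2339, 2594 and 999.5 in WT and 2129, 1666 and 1071 in knockout-labelled hearts after DOX. It was low in WT hearts without DOX, higher on every DOX array, and highest of all on knockout-labelled no DOX replicate 3. The difference was 3.05 (standard error 0.68, adjusted p = 0.046) in WT and 1.02 (standard error 0.68, adjusted p = 0.54) in knockout-labelled hearts, and 2.04 (standard error 0.48, adjusted p = 0.029) averaged. The averaged call held without 3 of 12 arrays (highest adjusted p 0.074 without knockout-labelled DOX replicate 1) and that in WT hearts without 3 (0.14 without WT DOX replicate 2). The pocket protein gene Rbl2 was at 310.5, 240.4 and 228 in WT and 296, 270.4 and 273 in knockout-labelled hearts without DOX, and 395, 419 and 446 in WT and 295, 329 and 254 in knockout-labelled hearts after DOX. It rose in WT hearts by 0.64 (standard error 0.11, adjusted p = 0.022), and its difference in knockout-labelled hearts was 0.05 (adjusted p = 0.89). The call of Rbl2 in WT hearts held without 8 of 12 arrays (highest adjusted p 0.086 without WT no DOX replicate 3). The dim Cdkn2a fell by 0.12 (adjusted p = 0.043), a call that held without 3 of 12 (0.10 without WT no DOX replicate 3).

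Of 15 E2F and MuvB factors, 1 rose and 2 fell in the averaged comparison (4.56% and 4.59% of all probe sets). Tfdp2, a partner of E2F proteins, rose by 0.77 (standard error 0.11, adjusted p = 0.0044), from 979.6 ± 119 to 1617 ± 202 in WT and from 852 ± 155 to 1533 ± 207 in knockout-labelled hearts. The other partner, Tfdp1, was higher in knockout-labelled hearts without DOX, 0.51 (adjusted p = 0.033). E2f6, a repressing member of the family, fell by 0.29 (adjusted p = 0.031), and Lin54, the MuvB subunit that binds DNA, fell by 0.22 (adjusted p = 0.040). The call of Tfdp2 held without each array in turn, that of Tfdp1 without 4 of 12 (highest adjusted p 0.11 without WT no DOX replicate 3), that of E2f6 without 4 (0.070 without knockout-labelled DOX replicate 1) and that of Lin54 without 2 (0.093 without knockout-labelled DOX replicate 1). Of 13 genes of the DNA damage checkpoint and repair, 2 fell and 0 rose (4.59% and 4.56% of all probe sets). At an unadjusted p under 0.05 limma gave 3 lower and 1 higher (11.1% and 12.0% of all). The 2 that fell were the checkpoint kinases Chek1, -0.22 (adjusted p = 0.033), and Chek2, -0.41 (adjusted p = 0.025). The call of Chek1 held without 4 of 12 arrays (highest adjusted p 0.079 without knockout-labelled DOX replicate 1) and that of Chek2 without 7 (0.065 without WT no DOX replicate 3).

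Markers of some cell types passed in the averaged DOX comparison, heart muscle among them, where 4.59% of all probe sets were lower and 4.56% higher. Between genotypes 1 of 8 fibroblast markers was higher without DOX and 1 after it. Of all 45037 probe sets, 416 were higher between genotypes without DOX and 131 after it. Of 6 smooth muscle and pericyte markers 1 was higher without DOX, and 0 markers of the other lists passed between genotypes. The summed intensity of 10 macrophage markers was 5315 to 6772 in WT and 4946 to 10111 in knockout-labelled hearts without DOX, and 3194 to 4382 and 4675 to 5686 after DOX. Of these markers 4 of 10 fell in the averaged comparison. The receptor gene Csf1r went from 1672 ± 199.7 to 974 ± 43.0 in WT and from 1718 ± 222 to 1335 ± 142 in knockout-labelled hearts, -0.55 (adjusted p = 0.0048), and the lysozyme gene Lyz2 was at -0.87 (adjusted p = 0.032). The 8 fibroblast markers summed to 11137 to 14241 in WT and 14980 to 22050 in knockout-labelled hearts without DOX, and to 9567 to 10573 and 11965 to 13621 after it, and 4 of 8 fell. The collagen gene Col3a1 was at -2.17 (adjusted p = 0.0084), while the brightest marker, decorin (Dcn), was at 0.02 (adjusted p = 0.94). The 4 erythroid markers summed to 232 to 1190 and 101 to 367 without DOX, and to 52.3 to 75.7 and 60.1 to 72.4 after it, with 1 of 4 lower. This was Alas2, the enzyme of heme synthesis in red cell precursors, -2.42 (standard error 0.40, adjusted p = 0.0077), and Slc4a1 was at -0.73 (adjusted p = 0.11).

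Of the remaining lists, the one of smooth muscle and pericytes was higher on all 3 knockout-labelled arrays without DOX than on all others, and the endothelial, neutrophil and lymphocyte sums overlapped between groups. Counts below are from the averaged comparison, where 4.59% of all probe sets were lower and 4.56% higher. At an unadjusted p under 0.05 these shares were 11.1% and 12.0%. The 8 endothelial markers summed to 4326 to 5102 and 4380 to 4960 without DOX, and to 4536 to 5320 and 3959 to 4876 after it, with 2 lower and 1 higher. The 2 brightest were among them, Kdr at -0.41 (adjusted p = 0.037) and Flt1 at 0.46 (adjusted p = 0.019). The 6 markers of smooth muscle and pericytes summed to 10699 to 12122 in WT and 15786 to 21251 in knockout-labelled hearts without DOX, and to 11225 to 12476 and 11120 to 12543 after it, with 2 of 6 lower. Acta2 was at -1.15 (adjusted p = 0.019) and was higher in knockout-labelled than in WT hearts without DOX, 2.41 (adjusted p = 0.014). Rgs5, the brightest, was at 0.13 (adjusted p = 0.15). The 8 neutrophil markers ranged from 369 to 6603 over all arrays, with the highest sums on WT DOX replicate 2 and knockout-labelled no DOX replicate 3, and 0 of 8 passed with limma (1 lower at an unadjusted p under 0.05). S100a8 was at 0.43 (adjusted p = 0.84) and S100a9 at 0.23 (adjusted p = 0.92). The 8 lymphocyte markers summed to 252 to 331 on all arrays, and 0 of 8 passed (3 lower at an unadjusted p under 0.05), with Cd3e at -0.03 (adjusted p = 0.85) and Cd4 at 0.02 (adjusted p = 0.91). The 10 heart muscle markers summed to 182733 to 190364 in WT and 173767 to 183516 in knockout-labelled hearts without DOX, and to 159504 to 184282 and 165343 to 173558 after it. Of these 2 fell, Actc1 at -0.38 (adjusted p = 0.025) and Ryr2 at -0.40 (adjusted p = 0.012), with Myl2 at 0.01 (adjusted p = 0.94) and Atp2a2 at -0.06 (adjusted p = 0.13). The part of these cells in the differences of the cell cycle genes was not tested. Without knockout-labelled no DOX replicate 3 and WT DOX replicate 2 together, the arrays with the highest neutrophil sums and a choice made after seeing the data, 10 of the 45 genes fell and 0 rose in the averaged comparison, 0 fell in WT and 3 in knockout-labelled hearts.

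**Figure D5:**
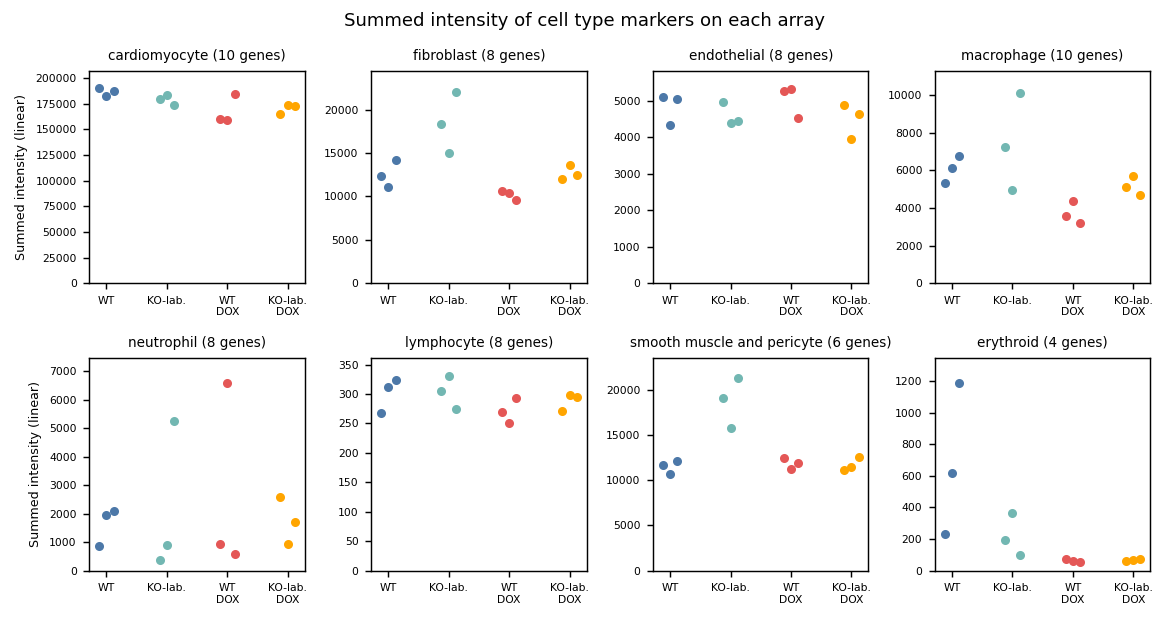
Summed linear intensity of the markers of 8 cell types on each array, with WT and KO-lab. as WT and knockout-labelled hearts without DOX and the same names with DOX after it. Points are arrays. Erythroid sums are low on all 6 DOX arrays, fibroblast and smooth muscle sums are highest in knockout-labelled hearts without DOX, and neutrophil sums are highest on 1 array of each of 2 groups.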

How the data were processed

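RNA of whole mouse hearts was measured on 12 Affymetrix arrays, 3 in each of 4 groups taken from the labels. The authors deposited 1 table of linear intensity values per probe set, made with Affymetrix Expression Console per the labels, and its version and summary method are not given in the sources used here. Gene names came from the platform annotation, which is dated. Of 45037 probe sets, 34945 named 1 gene, 932 several and 9160 none, and 51.4% had a mean intensity under 32. The members and the gene lists were chosen with earlier results of these data known.

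Intensities were raised by 32, log2-transformed and fitted across all probe sets with limma 3.58.1 in R 4.3.3 (4 group means, two-sided moderated tests, Benjamini-Hochberg adjustment over all 45037), which was tested on simulated data first. Tables and plots used Python 3.11.15 with pandas 2.3.3 and matplotlib 3.10.9. No filter on low values was applied. Genes were named with their values on every array when they passed in a comparison or were among the 2 of their role group with the smallest p after DOX, and in each other list up to 6 genes that passed. For each marker list the counts, the sums and the 2 brightest genes are given, and other genes named were chosen after their values were seen. Replicates are biological per the labels. The limma p-values set a difference against the spread between arrays within the 4 groups, moderated over all probe sets. Alternatives covered the added value, scaling, dim probe sets, variance model, array weights, choice of probe set, the replicate block, the methods' t-test and leaving out arrays. Promoters came from RefSeq (GRCm38.p6).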

Additional observations from a re-analysis of the deposited data

How the results depend on the processing

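The averaged DOX comparison gave 9 to 15 genes, against 11, under the settings in which it was fitted, other than leaving out an array. It was not fitted with only the arrays compared or with the methods' t-test. Without dim probe sets 22 of the 45 genes were tested. The count in WT hearts (1) was 2 with 16 added, without dim probe sets and with 1 probe set per gene, 3 with trend and robust variances, array weights or the mean of all probe sets, and 0 with only the arrays compared, the methods' t-test, or without knockout-labelled no DOX replicate 3 and WT DOX replicate 2, a choice made after seeing the data. That in knockout-labelled hearts (4) was 2 with 64 added, 7 with trend and robust variances or array weights, and 0 with only the arrays compared or the t-test. Between genotypes without DOX (0) it was 1 without dim probe sets or, chosen after seeing the data, with any probe set of a gene. After DOX (0) it was 2 without dim probe sets, with the mean of probe sets or with any probe set, and 1 with trend and robust variances, array weights or 1 probe set per gene. The cause was not tested.

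Leaving out each array in turn gave 5 to 13 genes in the averaged comparison, 0 to 3 in WT, 0 to 4 in knockout-labelled hearts, 0 to 1 between genotypes after DOX and 0 in the others. The averaged count was 5 without WT no DOX replicate 3, knockout-labelled DOX replicate 1 or 2, 6 without knockout-labelled no DOX replicate 2 or WT DOX replicate 1 or 2, and 7 without WT no DOX replicate 2 or knockout-labelled no DOX replicate 1. In WT hearts it was 0 without WT no DOX replicate 2 or 3, WT DOX replicate 1 or 2, knockout-labelled no DOX replicate 1 or knockout-labelled DOX replicate 2, 2 without knockout-labelled no DOX replicate 3, and 3 without WT DOX replicate 3. In knockout-labelled hearts it was 0 without knockout-labelled no DOX replicate 1, WT DOX replicate 1 or any knockout-labelled DOX replicate, and 2 without WT no DOX replicate 1 or 3, knockout-labelled no DOX replicate 2 or WT DOX replicate 2. After DOX it was 1 without knockout-labelled no DOX replicate 3 or WT DOX replicate 3. Medians ranged from -0.12 to -0.061 in WT, -0.10 to -0.04 in knockout-labelled hearts and -0.10 to -0.07 averaged, and from -0.02 to 0.03, 0.00 to 0.03 and -0.01 to 0.03 for the genotypes without DOX, after DOX and the interaction.

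With 64 added the median was -0.049 in WT and -0.049 averaged. Without dim probe sets, which left 22 genes, it was -0.11 in knockout-labelled hearts, -0.032 and -0.061 between genotypes without and after DOX, and -0.071 for the interaction. Ccnd3 turned with the mean of its probe sets, to 0.083 in WT, 0.0063 in knockout-labelled hearts and 0.045 averaged.

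Deviations of arrays with the same replicate number in different groups had r from -0.25 to 0.15, and those with different numbers r from -0.29 to 0.28. With 3 arrays a group this cannot settle whether the numbers pair the arrays. With the replicate number as a block 9 genes passed in the averaged comparison, 1 in WT and 1 in knockout-labelled hearts. The differences of the 23 genes with a mean under 32 shrink with the added value, and no background level was estimated here. Cdk1, Ccnb2, Plk4 and Birc5, which fell in the averaged comparison, are among these 23.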
